A study of Mus musculus with 12 samples.

Results

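The miRNAs described here are miR-101a and miR-101b, known for targeting the mRNA of the histone methyltransferase Ezh2, and miR-148a, miR-148b and miR-152, known for targeting mRNAs of DNA methyltransferases. They were chosen by name, and 8 mature arms of the 1966 miRNAs in the count table were taken: the 3p and 5p arms of miR-101a, miR-148a and miR-148b and the 3p arms of miR-101b and miR-152. The weak miR-101b-5p and miR-152-5p and the related miR-101c are in the table too and are described after them. All 8 passed the filter on low counts that left 809 miRNAs for testing. Small RNA was sequenced from whole quadriceps muscles of C57BL/6J mice, all wild type, at 1 day (P1), 5 days (P5), 14 days (P14) and 90 days (P90, adult) after birth. There were 3 libraries of each age, 12 in all, and the study's methods describe the samples of an age as separate mice. The labels name no transgene and no treatment, so age is the only labelled difference between the groups.

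A miRNA is cut from a hairpin precursor, and its 5p or 3p arm is loaded into an Argonaute protein, where bases 2 to 8, the seed, pair with matching stretches in 3′ UTRs and lower the output of the mRNA. Ezh2 is the catalytic subunit of Polycomb repressive complex 2, which methylates lysine 27 of histone H3 and, in muscle, is best known for holding differentiation genes silent in progenitor cells. Dnmt1 copies DNA methylation after replication, and Dnmt3a and Dnmt3b place it at new positions. Neither the proteins nor their mRNAs were measured in these libraries.

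The mature sequences from RefSeq, on the GRCm38.p6 build, are given because the comparisons within each family rest on how close its members are; capitals mark the seed.
miR-101a-3p: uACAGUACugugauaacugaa
miR-101b-3p: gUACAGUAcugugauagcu
miR-148a-3p: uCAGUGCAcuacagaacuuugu
miR-148b-3p: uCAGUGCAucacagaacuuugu
miR-152-3p: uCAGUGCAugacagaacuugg
The 3 sequences of the miR-148/miR-152 family share the seed CAGUGCA. With positions counted from 1 at the 5′ end, miR-148b-3p differs from miR-148a-3p by C9U and U10C, and miR-152-3p differs from miR-148a-3p by C9U, U10G and U20G. The miR-101 sequences share a stretch of 15 bases, and the difference between them within the overlap is A16G, counted in miR-101a-3p. The annotated miR-101b-3p begins 1 base earlier than miR-101a-3p, so its bases 2 to 8 read UACAGUA rather than ACAGUAC. The reads' own 5′ ends are not in the count table, so which of these seeds was more frequent was not tested.

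The less abundant 5p arms are given for the comparison of arms of the same hairpin.
miR-101a-5p: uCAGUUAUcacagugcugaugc
miR-148a-5p: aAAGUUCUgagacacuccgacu
miR-148b-5p: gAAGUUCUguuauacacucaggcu
MiR-148a-5p and miR-148b-5p share the seed AAGUUCU, which differs from that of their 3p arms.

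The 5 hairpins lie on 5 chromosomes. The miR-101a hairpin (chr4:101346945-101347027, minus strand) lies in an exon of the lncRNA E130102H24Rik, and the miR-101b hairpin (chr19:29135279-29135375, plus strand) in an intron of Rcl1, a gene of ribosomal RNA processing. The miR-148a hairpin (chr6:51269812-51269910, minus strand) overlaps the lncRNAs Gm38821, in an intron, and Gm66906, in an exon. MiR-148b (chr15:103285125-103285221, plus strand) and miR-152 (chr11:96850393-96850465, plus strand) lie in introns of Copz1 and Copz2, which encode paralogous zeta subunits of the COPI vesicle coat. Host genes were named from GENCODE vM39, and each hairpin lay on the strand of its host. No other annotated hairpin lay within 10 kb of any of the 5 hairpins, and none was on the opposite strand.

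Matches to the seeds were looked for in the 3′ UTRs of the enzymes to show the letters these miRNAs could pair with; capitals mark the 7 bases complementary to the seed, written as DNA. The letters GTACTGT, complementary to the miR-101a-3p seed, occurred at 2 positions of the Ezh2 3′ UTR, on its sense strand.
Ezh2, first match: ggaaccttgaGTACTGTgggcaatt
Ezh2, second match: aatttgcaaaGTACTGTaacagtaa
The second of them also held TACTGTA, the match of the annotated miR-101b-3p seed, which overlaps GTACTGT by 6 letters. The Ezh2 3′ UTR is 402 bases long, and 2.84% of the 3′ UTRs of at least this length held GTACTGT within their first 402 bases. Eed, another subunit of the complex, had 1 match to GTACTGT in a 3′ UTR of 283 bases, while Suz12 and Ezh1 had 0. Of the 3′ UTRs at least as long as that of Eed, 2.08% held GTACTGT within their first 283 bases.
Eed: tacattctttGTACTGTcttcctgc
For the miR-148/miR-152 family, TGCACTG occurred at 1 position of the Dnmt1 3′ UTR and at 0 positions of those of Dnmt3a and Dnmt3b.
Dnmt1: gagccccacgTGCACTGatgttttt
The miR-101 letters were not confined to the Polycomb genes: the Dnmt3a 3′ UTR held 1 GTACTGT and 2 TACTGTA, and that of Dnmt1 held 1 TACTGTA. Of the 3′ UTRs at least as long as that of Dnmt3a, 37.9% held GTACTGT and 44.7% TACTGTA within a stretch of the same length, and 7.68% held TACTGTA within the length of that of Dnmt1. Of the 3′ UTRs at least as long as that of Dnmt1, 9.33% held TGCACTG within a stretch of the same length from their start. These matches are stretches of letters in 1 annotated transcript of each gene; no pairing was measured.

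The libraries held 20363495 to 53126984 counts. The P90 libraries differed from the rest in composition: muscle miRNAs, 6 markers that include miR-1a-3p, took 55.7% to 58.5% of their counts, against at most 34.2% at the other ages, and their TMM scaling factors were 0.247 to 0.384, against 1.24 to 1.72. Levels are given as normalized CPM, counts relative to library sizes scaled with these factors, so at P90 they exceed the share of raw counts; values scaled by library totals alone are called unscaled CPM. The median log2 fold change (log2FC) of all 809 tested miRNAs from P1 to P90 was -0.72 with TMM factors, -2.97 with library totals alone and 1.18 with upper-quartile factors, so the sign of a fold change against P90 is stated relative to the scaling. Levels relative to each miRNA's mean over the 12 libraries also followed GC content, most at 2 ages. The slope of this relative log2 level per 10 percentage points of GC was 0.377 to 0.561 in the P14 libraries. It was -0.591 to -0.38 in the P90 libraries, against -0.0123 to 0.0749 at P1 and P5. A GC trend common to all libraries would not be seen in these slopes. Muscle markers were abundant in every library. Markers of blood (7 miRNAs, 0.0162% to 0.127% of the counts), of endothelium and smooth muscle (4, 2.13% to 5.17%) and of nerve (2, 0.00477% to 0.0453%) were present at all ages, and the liver miRNA miR-122-5p had 228 to 15853 counts. No marker was at 0 in all libraries of an age. The part of these shifts in the results was not tested, and in whole muscle a smaller share of cells that express a miRNA and less of it per cell cannot be told apart.

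The 2 families moved apart between P14 and P90. On the TMM scale the miR-101 3p arms fell from P5 to P14 and then rose 10.2-fold (miR-101a-3p) and 7.14-fold (miR-101b-3p) to P90, whereas miR-148a-3p and miR-152-3p fell about 2-fold from P5 to P14 and their P90 libraries overlapped those of P14. The size of the second step depends on the scaling: with library totals alone its log2FC was 1.07 for miR-101a-3p and 0.58 for miR-101b-3p, and -2.36 for miR-148a-3p and -2.30 for miR-152-3p. On the TMM scale miR-148b-3p, which has the same seed as the latter pair, was between 223 and 321 normalized CPM in all 12 libraries. This steady level also depends on the scaling. Its log2FC from P14 to P90 was -1.91 with library totals alone and 1.90 with upper-quartile factors. Of the 8 arms, 7 differed between the ages, against 72.4% of all miRNAs tested, so their number alone does not set them apart.

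**Figure D1:**
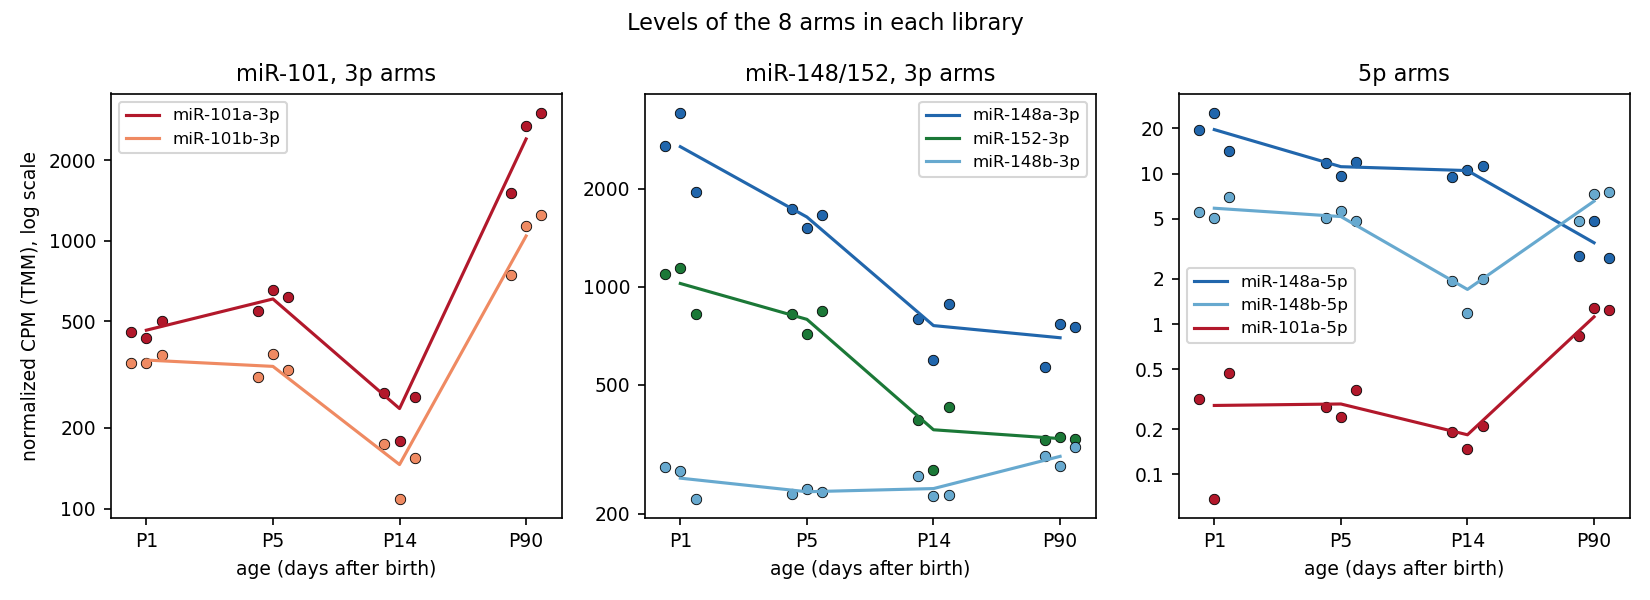
Normalized CPM (TMM, log scale) of the 8 arms against postnatal age; each point is a library (3 per age) and lines join the age means. On this scale miR-101a-3p and miR-101b-3p are lowest at P14 and highest at P90, and miR-148a-3p and miR-152-3p descend to P14. MiR-148b-3p stays between 223 and 321 normalized CPM on the same scale.

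The arm mmu-miR-101a-3p, the more abundant of miR-101, had 458, 432 and 501 normalized CPM in P1 replicates 1 to 3 and 546, 655 and 619 at P5. It had 270, 179 and 260 normalized CPM at P14 and 1507, 2691 and 3008 at P90. All P14 libraries lay below, and all P90 libraries above, those of the other ages, with P90 replicate 1 the lowest of its group. The fall from P5 to P14 had a log2FC of -1.36 (SE 0.22, edgeR Padj 0.00013), and the rise from P14 to P90 one of 3.34 (SE 0.24, edgeR Padj 4.1e-09). Both kept their sign and their call under every alternative tried, although with the GC trend removed the fall was -0.67 and the rise 1.77, and the rise ranged from 1.07 with library totals alone to 4.90 with upper-quartile factors; miR-101a-3p has a GC content of 33.3%, the lowest of the 8 arms. From P1 to P90 its level rose 5.18-fold (log2FC 2.37, SE 0.23, edgeR Padj 1.3e-07). This last change rests on the scaling: in unscaled CPM the means were 729 (SD 58.4, n = 3) at P1 and 759 (SD 189, n = 3) at P90, and the log2FC with library totals alone was 0.06 (edgeR Padj 0.774). Among all miRNAs of a library, miR-101a-3p ranked between 133 and 160 at P14 and between 36 and 47 at P90.

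The arm mmu-miR-101b-3p, encoded at the second locus, had 350, 351 and 375 normalized CPM at P1 and 311, 379 and 329 at P5. At P14 it had 174, 109 and 155 normalized CPM, and at P90 746, 1136 and 1246. The P1 and P5 libraries overlapped, those of P14 lay below all others and those of P90 above. The log2FC was -1.22 (SE 0.20, edgeR Padj 0.00013) from P5 to P14 and 2.84 (SE 0.21, edgeR Padj 6.4e-09) from P14 to P90, and both calls were kept under every alternative tried. The size of the rise was 0.58 with library totals alone (edgeR Padj 0.00816), 2.10 with the GC trend removed and 4.40 with upper-quartile factors. The log2FC from P1 to P90 was 1.54 (SE 0.20, edgeR Padj 4.4e-06) and turned to -0.77 with library totals alone (edgeR Padj 0.00107).

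The other arm of the miR-101a hairpin, mmu-miR-101a-5p, had 3 to 24 counts in a library. The P1 libraries held 12, 3 and 20 counts and the P5 libraries 11, 10 and 16, while 7, 6 and 6 were counted at P14 and 14, 24 and 15 in the P90 libraries. In normalized CPM the P90 libraries lay above all others. It entered the test with 5 libraries over the filter's 0.348 CPM, of which 1 was a P90 library. Its log2FC from P14 to P90 was 2.59 (SE 0.73, edgeR Padj 0.00622), and that from P1 to P90 1.95 (SE 0.69, edgeR Padj 0.0217). The second call was lost without P1 replicate 2 (log2FC 1.44, edgeR Padj 0.0936) without 3 other libraries left out singly, P1 replicate 1 and P90 replicates 2 and 3 (1.80 to 1.98), and with no filter on low counts (1.91, edgeR Padj 0.084). With library totals alone neither was called, with log2FC of 0.36 from P14 to P90 (edgeR Padj 0.661) and -0.30 from P1 to P90.

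The most abundant of the 8 arms at P1, mmu-miR-148a-3p, had 2703, 3429 and 1959 normalized CPM at P1 and 1737, 1513 and 1666 at P5. It had 798, 594 and 886 normalized CPM at P14 and 566, 770 and 754 at P90. The P1 libraries lay above those of P5 and these above those of P14, while the P14 and P90 libraries overlapped. The log2FC from P1 to P5 was -0.72 (SE 0.20) and did not pass the test (edgeR Padj 0.0516). The fall from P5 to P14 was -1.11 on the log2 scale (SE 0.20, edgeR Padj 0.00033), and the value from P14 to P90 was -0.12 (95% interval -0.51 to 0.26, edgeR Padj 0.611). The latter was called in other settings, as a fall of -2.36 with library totals alone (edgeR Padj 4.7e-08) and of -0.98 with the GC trend removed (edgeR Padj 0.00034), and as a rise of 1.45 with upper-quartile factors (edgeR Padj 1e-05). From P1 to P90 miR-148a-3p fell 3.87-fold (log2FC -1.95, SE 0.20, edgeR Padj 3.9e-07), and in unscaled CPM its mean went from 4284 (SD 1411, n = 3) to 226 (SD 44.2, n = 3). With upper-quartile factors, under which the median of all tested miRNAs was 1.18, this log2FC was -0.08.

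The arm mmu-miR-152-3p had 1098, 1145 and 827 normalized CPM at P1 and 824, 714 and 843 at P5. It had 389, 273 and 427 normalized CPM at P14 and 338, 346 and 339 at P90. The P1 and P5 libraries overlapped, as did those of P14 and P90, and both earlier ages lay above both later ages. The log2FC was -1.13 (SE 0.17, edgeR Padj 6.8e-05) from P5 to P14, -0.09 (95% interval -0.42 to 0.24, edgeR Padj 0.668) from P14 to P90 and -1.59 (SE 0.17, edgeR Padj 6.4e-07) from P1 to P90. The value from P14 to P90 was -2.30 with library totals alone (edgeR Padj 3.4e-08) and 1.49 with upper-quartile factors (edgeR Padj 1.8e-06), both called, and that from P1 to P90 was 0.30 with upper-quartile factors.

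The arm mmu-miR-148b-3p had 278, 272 and 223 normalized CPM at P1 and 230, 239 and 233 at P5. The P14 libraries had 262, 227 and 229 normalized CPM, and the P90 libraries 301, 280 and 321. The libraries of P1, P5 and P14 overlapped, and those of P90 lay above them. It was the single arm with no call across the 4 ages (edgeR Padj 0.0791). Its log2FC from P1 to P90 was 0.22 with a 95% interval of -0.04 to 0.48. Both rest on the setting. With RLE size factors, upper-quartile factors, DESeq2 or the GC trend removed, all 8 arms were called across the ages. With TMM factors 72.4% of all miRNAs were called across the ages, and the share under these settings is not given. From P1 to P90 miR-148b-3p was called higher with RLE size factors (0.56, edgeR Padj 0.00181) and upper-quartile factors (2.10, edgeR Padj 2.3e-09). It was called lower with library totals alone (-2.05, edgeR Padj 3.5e-08). The log2FC from P14 to P90 was 0.33 (SE 0.13, edgeR Padj 0.0457). This call was lost when any of 4 libraries was left out, P14 replicates 2 and 3 and P90 replicates 1 and 3 (0.30 to 0.34), and the value turned to -0.52 with the GC trend removed and to -1.91 with library totals alone. In unscaled CPM, miR-148b-3p went from a mean of 406 (SD 56.4, n = 3) at P1 to 98.1 (SD 18.2, n = 3) at P90, so its steady level also rests on the scaling.

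The 5p arms of the miR-148 hairpins did not simply follow their 3p arms. Of mmu-miR-148a-5p, 734, 1100 and 590 counts were found at P1 and 463, 400 and 529 at P5, with a mean of 19.6 normalized CPM (SD 5.67, n = 3) at P1. The P14 libraries had 347, 432 and 323 counts and the P90 libraries 48, 91 and 33, with means of 10.5 (SD 0.876, n = 3) and 3.48 (SD 1.17, n = 3) normalized CPM. In normalized CPM the P5 and P14 libraries overlapped and the P90 libraries lay below all others. Its log2FC was -0.08 (95% interval -0.56 to 0.40, edgeR Padj 0.817) from P5 to P14, where miR-148a-3p fell. From P14 to P90 it was -1.58 (SE 0.26, edgeR Padj 8.2e-05), where the value of miR-148a-3p was -0.12. Both values of this second step rest on the scaling. With library totals alone they were -3.79 for miR-148a-5p and -2.36 for miR-148a-3p. With upper-quartile factors they were 0.01 (edgeR Padj 0.989) and 1.45.

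The arm mmu-miR-148b-5p had 209, 221 and 296 counts at P1 and 197, 236 and 215 at P5, with mean normalized CPM of 5.89 (SD 1.02, n = 3) and 5.19 (SD 0.419, n = 3). The P14 libraries had 70, 48 and 57 counts and the P90 libraries 82, 138 and 90, with means of 1.70 (SD 0.450, n = 3) and 6.56 (SD 1.46, n = 3) normalized CPM. In normalized CPM the P14 libraries lay below all others, and the other ages overlapped. The log2FC was -1.61 (SE 0.27, edgeR Padj 0.00015) from P5 to P14 and 1.95 (SE 0.27, edgeR Padj 1.4e-05) from P14 to P90, and -0.29 for the latter with library totals alone.

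By comparison, 0 of the 8 arms were called from P1 to P5 with edgeR, against 4.45% of all miRNAs tested. DESeq2 called 2, against 9.64% of all miRNAs by DESeq2. An unadjusted edgeR p under 0.05 was found for 3 arms. The share of all miRNAs under that limit is not given, so this count has nothing to be read against. From P5 to P14, 5 arms fell and 0 rose, against 44.4% of all miRNAs called in either direction and 26.3% called lower. From P14 to P90, 5 arms rose, against 22.4% of all called higher, and miR-148a-5p fell, against 36.7% called lower and 59.1% in either direction. From P1 to P14, 6 arms fell, against 28.8% called lower and 49.1% in either direction. From P1 to P90, the 3 miR-101 arms rose and miR-148a-3p, miR-148a-5p and miR-152-3p fell, against 25.2% called higher, 41.2% called lower and 66.4% in either direction. The directions against P90 rest on the scaling. From P14 to P90, library totals alone gave 2 arms higher and 4 lower, against 2.22% and 77.6% of all miRNAs, and upper-quartile factors gave 7 higher and 0 lower, against 47.2% and 19.7%. With the GC trend removed, 4 were higher and 3 lower at that step, against 19.9% and 36.3% of all miRNAs. From P1 to P90, library totals alone gave 0 higher and 6 lower, against 4.45% and 80% of all miRNAs, and upper-quartile factors 5 higher and 0 lower, against 48.3% and 23.7%. The libraries of the 2 ages did not overlap in normalized CPM for 3 arms from P1 to P5 (32.5% of all miRNAs tested), 6 from P5 to P14 (54.4%), 6 from P14 to P90 (61.2%), 6 from P1 to P14 (59.2%) and 7 from P1 to P90 (72.6%). The same ages enter several of these comparisons, so they are not independent of each other.

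**Figure D2:**
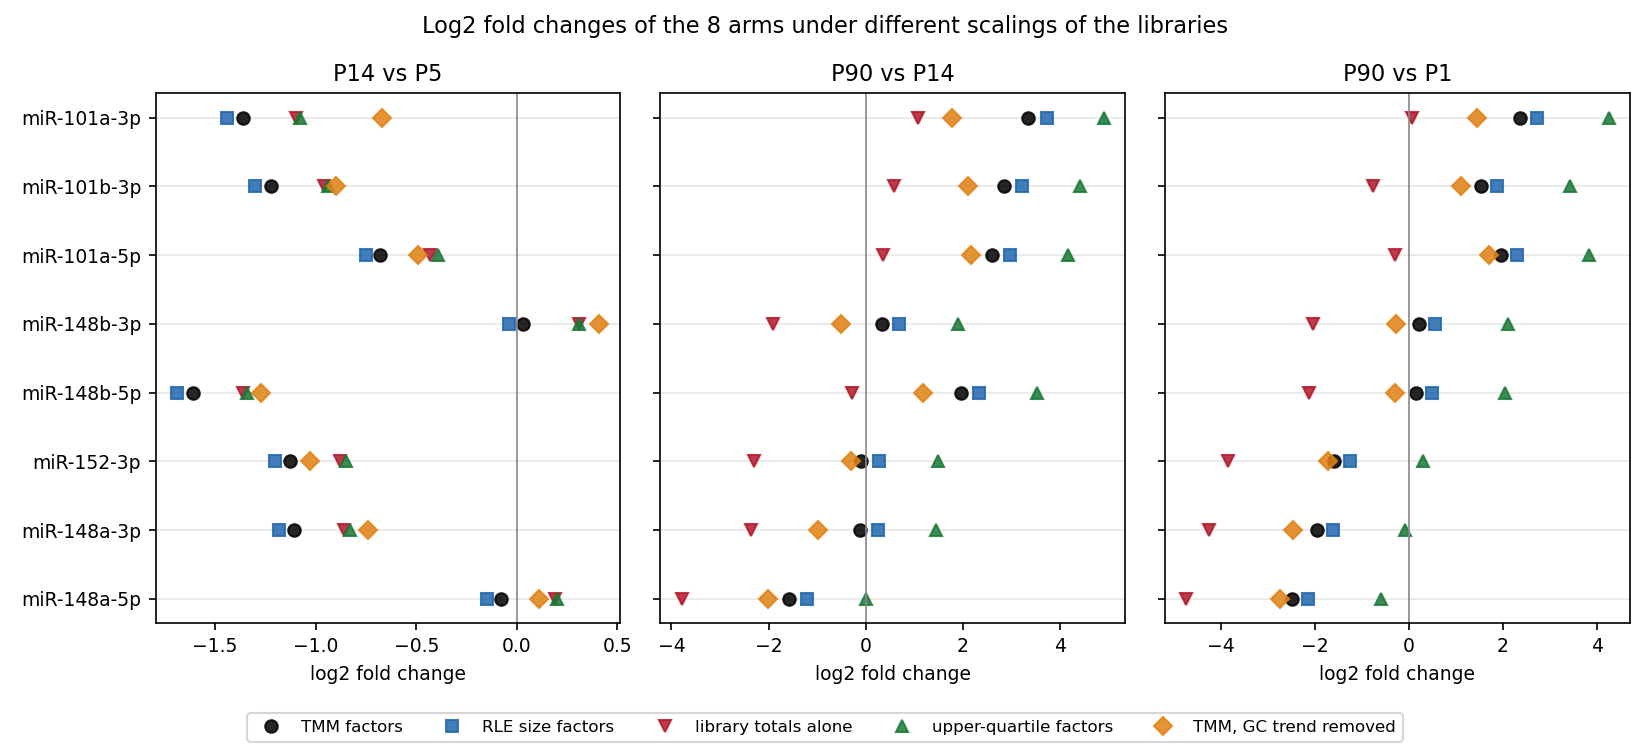
Log2 fold change of each arm in 3 age comparisons (panels) under 5 treatments of the counts (symbols); the vertical line marks 0. In the step from P5 to P14 the symbols of miR-101a-3p, miR-101b-3p, miR-148b-5p, miR-152-3p and miR-148a-3p all lie below 0, whereas in P90 vs P1 library totals alone give 0.06 for miR-101a-3p against 2.37 with TMM factors.

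Ratios of counts within a library do not depend on how libraries are scaled, and 8 such ratios were tested across the ages with an exact permutation test over all 15400 partitions of the 12 libraries. The summed miR-101 3p arms were 0.198, 0.162 and 0.291 of the summed miR-148/miR-152 3p arms at P1 and 0.307, 0.419 and 0.346 at P5. The ratio was 0.306, 0.263 and 0.269 in the P14 libraries and 1.87, 2.74 and 3.01 in those of P90. The 3 P90 libraries were the only ones of the 12 above 1, and all others were below 0.5. The geometric mean of the ratio went from 0.21 at P1 to 2.49 at P90, and the ratio differed between the ages (exact permutation p = 0.00091, adjusted over the 8 ratios 0.00145). The difference between P90 and P1 was 3.56 on the log2 scale and 3.23 with the GC trend removed.

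Within the miR-101 family, miR-101a-3p had 1.31, 1.23 and 1.34 times the counts of miR-101b-3p at P1 and 1.75, 1.73 and 1.88 times at P5. The ratio was 1.56, 1.63 and 1.68 at P14 and 2.02, 2.37 and 2.41 at P90. No libraries of different ages overlapped, and the exact permutation p was 6.5e-05, the smallest these 12 libraries can give (adjusted 0.00035). With the GC trend removed the geometric means were 1.32, 1.81, 2.12 and 1.67 at P1, P5, P14 and P90, so that P14 rather than P90 was highest and the difference between P90 and P1 fell from 0.81 to 0.33 on the log2 scale. The 2 arms differ in GC content, 33.3% for miR-101a-3p and 42.1% for the annotated miR-101b-3p; the part of GC content in the ratio was not tested further.

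Within the miR-148/miR-152 family, miR-148a-3p had 9.73, 12.6 and 8.78 times the counts of miR-148b-3p at P1 and 7.56, 6.32 and 7.16 times at P5. The ratio was 3.04, 2.61 and 3.87 at P14 and 1.88, 2.75 and 2.34 at P90. The P14 and P90 libraries overlapped, and the other ages were apart from each other and from these (exact permutation p = 0.00013, adjusted 0.00035). The 2 arms have the same GC content, 40.9%, and this ratio was therefore the same with the GC trend removed. MiR-152-3p also fell against miR-148b-3p, with geometric means of 3.95, 3.39, 1.49 and 1.14 in the order of the ages (exact permutation p = 0.00026, adjusted 0.00052). These arms differ in GC content, 47.6% and 40.9%, and with the GC trend removed the geometric means were 3.87, 3.36, 1.22 and 1.43, so that the ratio was lowest at P14 rather than P90.

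The ratio of miR-152-3p to miR-148a-3p moved less. Its geometric means were 0.385, 0.484, 0.476 and 0.494 in the order of the ages ( exact permutation p = 0.0294, adjusted 0.0336). This call was lost when any of 8 single libraries was left out and without the P14 libraries (adjusted exact permutation p = 0.0762), and P90 replicate 1, with 0.598, stood above the other P90 libraries, both 0.449. With the GC trend removed the geometric means were 0.378, 0.48, 0.388 and 0.623, and the difference between P90 and P1 was 0.72 on the log2 scale, against 0.36 without this step (adjusted exact permutation p = 0.00156).

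**Figure D3:**
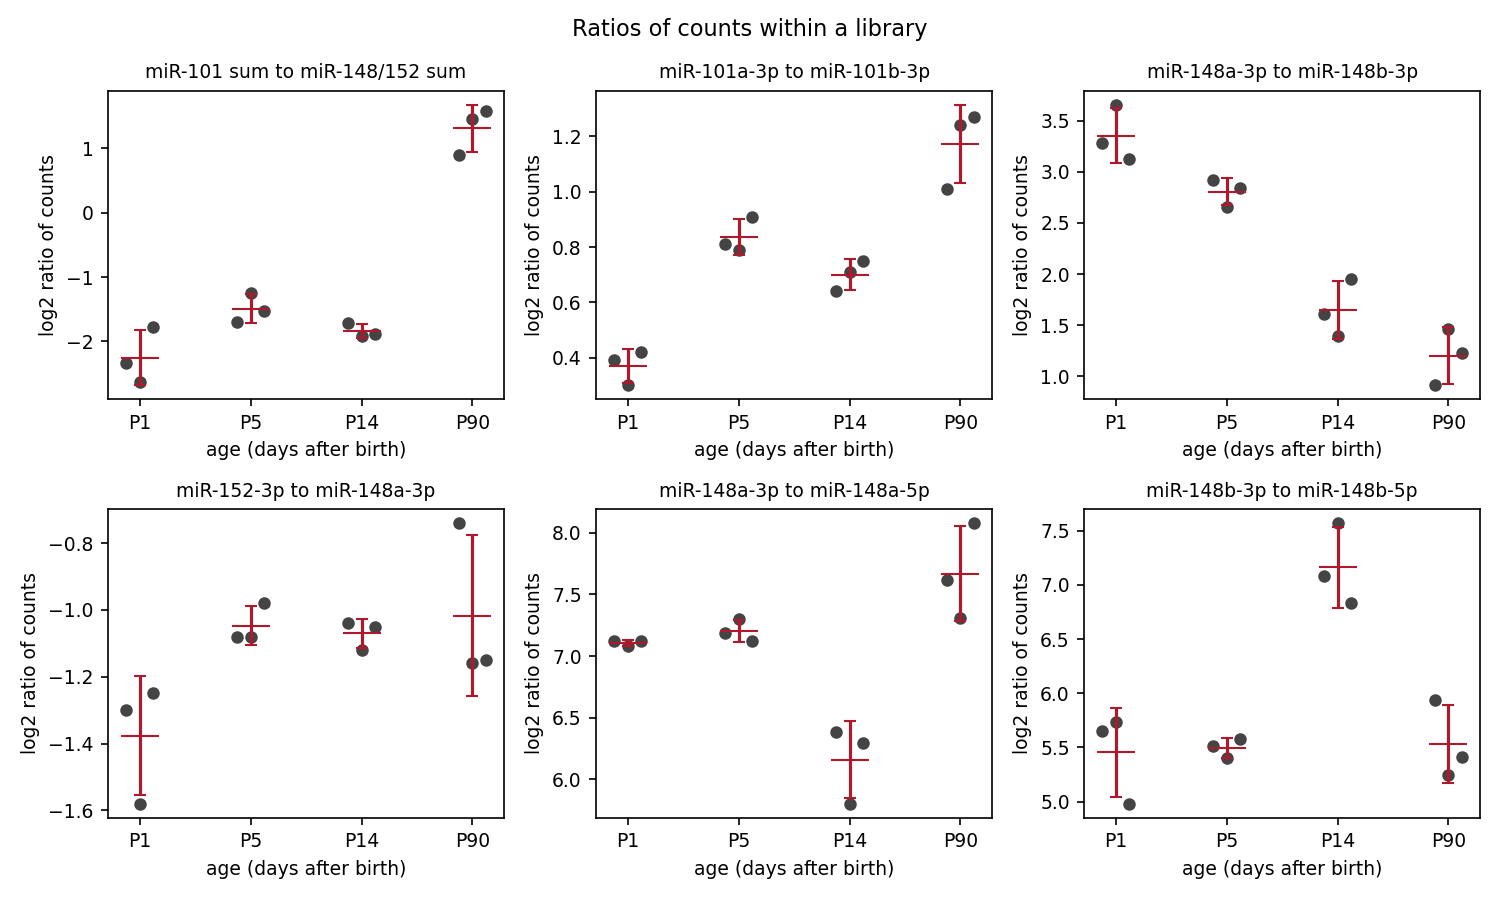
Log2 ratio of counts within each library for 6 of the 8 ratios, against postnatal age; points are libraries (3 per age), and the red bars are the age mean and SD. The P90 points of the miR-101 sum to the miR-148/miR-152 sum lie above 0 and all others below it.

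As shares of the family's 3p counts, miR-148a-3p fell from 67.4% (SD 2.98, n = 3) at P1 to 51.8% (SD 4.32, n = 3) at P90, and miR-148b-3p made up 6.61% (SD 0.919), 8.81% (SD 0.786), 17.9% (SD 2.95) and 22.6% (SD 2.48) at P1, P5, P14 and P90. The share of miR-152-3p was 25.6% to 29.7% in the age means. The family total fell over the same ages, from a mean of 3978 to 1338 normalized CPM. MiR-101a-3p made up 56.3% (SD 1.05, n = 3) of the miR-101 total at P1 and 69.3% (SD 2.10, n = 3) at P90.

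**Figure D4:**
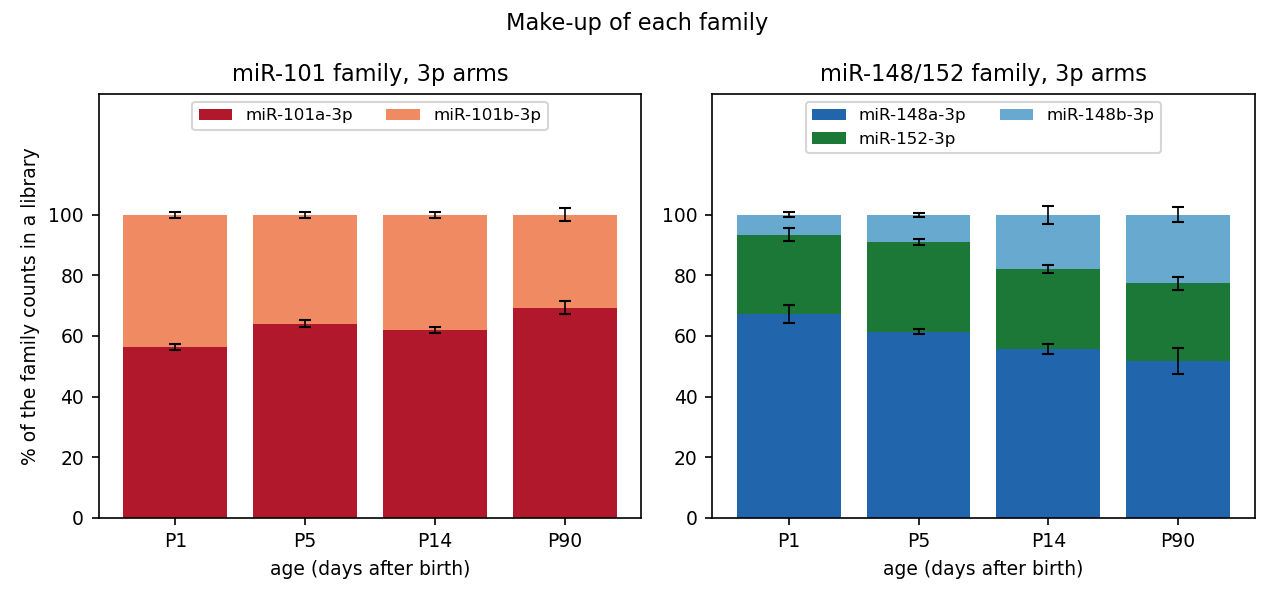
Stacked bars of the mean share of each 3p arm in its family's counts within a library, by postnatal age; error bars are SD over 3 libraries. The share of miR-148b-3p grows from 6.61% at P1 to 22.6% at P90.

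The 2 arms of the miR-148a and miR-148b hairpins changed their ratio at P14, in opposite directions. MiR-148a-3p had 135 to 139 times the counts of miR-148a-5p at P1 and 139 to 158 times at P5, then 83.4, 55.7 and 78.4 times at P14, and a geometric mean of 203 at P90 (exact permutation p = 0.00013, adjusted 0.00035). All P14 libraries lay below all others. For miR-148b the geometric means of the 3p to 5p ratio were 43.8, 45.1, 143 and 46.4 in the order of the ages (exact permutation p = 0.0175, adjusted 0.0233). With the GC trend removed, the P14 means were 82.0 for miR-148a and 146 for miR-148b. Without the P14 libraries the miR-148b ratio did not differ between the ages (adjusted exact permutation p = 1). For miR-101a the ratio of arms, with geometric means of 1187 to 2036, did not pass the test (exact permutation p = 0.457), with 3 to 24 counts of the 5p arm per library.

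The order of the 5 main arms changed with age. At P1 and P5 it was miR-148a-3p, miR-152-3p, miR-101a-3p, miR-101b-3p and miR-148b-3p in every library, with no overlap between neighbours. At P14 miR-148b-3p stood beside miR-101a-3p, with 239 (SD 19.8, n = 3) and 236 (SD 50.2, n = 3) normalized CPM and overlapping ranges. At P90 the order was miR-101a-3p, miR-101b-3p, miR-148a-3p, miR-152-3p and miR-148b-3p, where the ranges of miR-101b-3p and miR-148a-3p overlapped although miR-101b-3p was higher in 3 of 3 libraries. Counts of different miRNAs also depend on how well each sequence is ligated and amplified, so this order is that of counts.

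Other entries of the same families were read alongside. MiR-152-5p, the other arm of miR-152, had mean normalized CPM of 7.61, 5.25, 3.66 and 2.32 at the 4 ages, and its log2FC from P1 to P90 was -1.71 (SE 0.24, edgeR Padj 1.2e-05). With upper-quartile factors this value was 0.17. MiR-101c, annotated on chromosome 9, had 11 to 69 counts, 0.0808% to 0.179% of those of miR-101a-3p in the same library. Its 19 bases all occur within miR-101a-3p, so the counts of the 2 entries cannot be told apart from shared reads. MiR-101b-5p had 1 to 30 counts, highest at P14 with 18, 30 and 24.

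Across the 12 libraries, the log2 levels of miR-101a-3p and miR-101b-3p had a Pearson r of 0.98, and those of miR-148a-3p and miR-152-3p also had an r of 0.98, while that of miR-148a-3p and miR-148b-3p was -0.22. These are descriptions over 12 libraries in 4 age groups that share the scaling. Of 327 other miRNAs with at least 10 normalized CPM, the nearest in pattern to miR-101a-3p were miR-3068-5p (r = 0.98), let-7g-5p (0.98) and miR-15a-5p (0.97), and to miR-101b-3p miR-3068-5p, let-7a-1-3p and miR-3068-3p (all 0.97). With library totals alone the r of miR-101a-3p with let-7g-5p was -0.16, and 1 of its 3 nearest miRNAs was kept, as was 1 of 3 for miR-101b-3p, 0 of 3 for miR-148a-3p and miR-148b-3p and 2 of 3 for miR-152-3p. The nearest to miR-148a-3p were miR-218-5p (0.95), miR-450b-5p (0.95) and miR-499-5p (0.94), and to miR-152-3p miR-450b-5p, miR-199b-3p and miR-199a-3p (all 0.96). The nearest to miR-148b-3p were miR-186-5p and miR-27a-3p (both 0.80) and miR-1843b-5p (0.78), with r of 0.99, 0.95 and -0.22 with library totals alone.

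A list of 15 other miRNAs known to target mRNAs of chromatin enzymes was read in the same fit. From P1 to P90, 10 rose, 3 fell and 2 did not pass the test, against 25.2% of all miRNAs called higher and 41.2% lower. The median log2FC of the 15 was 1.65, beside -0.72 over all tested miRNAs. With library totals alone, which put the latter median at -2.97, 4 rose and 10 fell, against 4.45% and 80% of all miRNAs. Those that rose included the miR-29 family, known for targeting Dnmt3a and Dnmt3b, with log2FC of 5.70 for miR-29a-3p, 6.23 for miR-29b-3p and 6.67 for miR-29c-3p, and miR-26a-5p (1.95), which like miR-101 is known for targeting Ezh2. Those that fell were miR-214-3p (-2.81), also known for targeting Ezh2, miR-342-3p (-2.05) and miR-206-3p (-3.78). From P5 to P14, where miR-101a-3p and miR-101b-3p fell, 3 of the 15 rose, 2 fell and 10 did not pass. Of all miRNAs tested, 18% were called higher and 26.3% lower at that step. Of the 15, miR-1a-3p and miR-206-3p are also muscle markers, miR-126a-3p and miR-143-3p markers of vessels, and miR-124-3p a nerve marker.

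From P1 to P90 the marker lists moved as follows: of 6 muscle miRNAs 2 rose and 3 fell, of 7 blood miRNAs 2 rose and 2 fell, of 4 miRNAs of endothelium and smooth muscle 4 rose, of 2 nerve miRNAs 1 rose, and the liver miRNA miR-122-5p fell. With library totals alone, 4 of the 4 miRNAs of endothelium and smooth muscle and 2 of the 2 of nerve were lower. Of the 7 of blood, 6 were lower and 1 higher with library totals alone, and 6 higher and 0 lower with upper-quartile factors. Of all miRNAs tested, 25.2% were called higher and 41.2% lower with TMM factors. The shares were 4.45% and 80% with library totals alone, and 48.3% and 23.7% with upper-quartile factors. From P5 to P14, where 5 of the 8 arms fell, 5 of the 7 blood miRNAs fell and 1 rose, with log2FC of -3.03 for miR-144-3p and -2.29 for miR-142a-3p, 3 of the 6 muscle miRNAs fell and 1 rose, and of the 4 of endothelium and smooth muscle 1 fell and 2 rose. Of all miRNAs tested, 18% were called higher and 26.3% lower from P5 to P14. From P14 to P90 the miR-101 arms rose. On the TMM scale 7 of the 7 blood miRNAs and 3 of the 4 of endothelium and smooth muscle also rose. Of the 6 muscle miRNAs 3 rose and 2 fell, and of all miRNAs 22.4% were called higher and 36.7% lower. In raw counts the blood markers summed to 0.0555% to 0.0682% at P14 and 0.0162% to 0.0294% at P90. Those of endothelium and smooth muscle summed to 4.7% to 5.17% and 2.13% to 2.87%. The part of these markers in the fall of the 5 arms and in the rise of miR-101 was not tested.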

How the data were processed

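Reads of 10 to 35 nt were kept by the authors, who, per the labels, used cutadapt 1.18, Bowtie2 2.4.1 on GRCm38 and featureCounts 2.0.1; the study's methods name miRBase release 22 as the annotation. The deposited table holds raw counts for 12 libraries, with no normalization; strand and multi-mapping options are not given in the sources used here. Groups and replicate numbers came from the sample titles. Here, edgeR 4.0.16 in R 4.3.3 was used: filterByExpr (minimum count 10), TMM factors, one quasi-likelihood fit of 4 age means to the 12 libraries, F-tests (2-sided) for any age and 5 comparisons, Benjamini-Hochberg adjustment over 809 miRNAs and a call at Padj under 0.05. SE were derived from the F statistic, and 95% intervals from the SE. Ratios used log2 of counts plus 0.5, with an exact permutation test of the sum of squares between ages. Named miRNAs were the 8 arms, 3 other entries of their families and, for arms averaging at least 100 normalized CPM, the 3 highest correlations among miRNAs averaging at least 10, later-named antisense entries left out. The GC trend was estimated in each library, relative to the mean of the 12 libraries, over 309 miRNAs. Of the tested miRNAs, 85% had a mature sequence. Replicates differed by more than sampling noise in all 12 pairs. The edgeR p-values rest on a spread between libraries of the same age, estimated over all 12 libraries. The ratio p-values rest on partitions of the 12 libraries. Seed matches were searched in 20671 3′ UTRs of GENCODE vM39. The model was tested on simulated data that held neither the shift in composition at P90 nor the GC trend. That test therefore does not bear on how the results depend on the scaling. Alternatives included DESeq2 1.42.0, other scalings, no filter, a replicate block and leaving out each library. The members and lists were chosen with earlier results of these data known. Samples of other ages or genotypes were not analysed here.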

Additional observations from a re-analysis of the deposited data

How the results depend on the processing

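The falls of miR-101a-3p, miR-101b-3p, miR-148a-3p, miR-148b-5p and miR-152-3p from P5 to P14, and the rises of miR-101a-3p and miR-101b-3p from P14 to P90, kept their sign and call under every alternative run. The count of called arms stayed at 5 to 6 from P5 to P14, 5 to 7 from P14 to P90, 5 to 6 from P1 to P14, 5 to 7 from P1 to P90 and 6 to 8 across the ages, but against P90 the directions did not stay: from P1 to P90, 3 higher and 3 lower became 0 and 6 with library totals alone and 5 and 0 with upper-quartile factors. The share of all tested miRNAs called under the same alternatives was 22% to 49% from P5 to P14 and 31.1% to 79.9% from P14 to P90. It was 26.2% to 54.7% from P1 to P14 and 34.8% to 84.4% from P1 to P90. Across the ages it was 72.4% with TMM factors and is not given for the alternatives. From P1 to P5 the count of arms was 2 with DESeq2 (9.64% of all miRNAs), no filter (4.02%), library totals alone (4.94%) and only the libraries of the 2 ages (11.7%). It was 1 with the GC trend removed (4.82%) and 0 to 2 when single libraries were left out (0.931% to 5.92%). The cause was not tested for any of the changes given here.

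Values that turned their sign are given as log2FC. With library totals alone they were -0.23 (P5 vs P1) and -0.30 (P90 vs P1) for miR-101a-5p, -0.77 for miR-101b-3p (P90 vs P1), 0.19 for miR-148a-5p (P14 vs P5), -1.91 (P90 vs P14) and -2.05 (P90 vs P1) for miR-148b-3p, and -0.29 (P90 vs P14) and -2.13 (P90 vs P1) for miR-148b-5p. With upper-quartile factors they were 1.45 for miR-148a-3p and 1.49 for miR-152-3p (P90 vs P14), 0.20 (P14 vs P5) and 0.01 (P90 vs P14) for miR-148a-5p, 0.20 for miR-148b-3p (P14 vs P1), and 0.30 for miR-152-3p and 0.17 for miR-152-5p (P90 vs P1). With RLE size factors and with DESeq2 alike they were 0.25 for miR-148a-3p and 0.28 for miR-152-3p (P90 vs P14) and -0.04 for miR-148b-3p (P14 vs P5). With only the libraries of the 2 ages, they were 0.19 for miR-148a-3p and 0.22 for miR-152-3p (P90 vs P14) and 0.00 for miR-148a-5p (P14 vs P5). Without the later-named antisense entries, miR-148a-3p gave 0.12 and miR-152-3p 0.15 (P90 vs P14), and with no filter miR-152-3p gave 0.01 (P90 vs P14) and miR-148b-3p -0.07 (P14 vs P5).

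With the GC trend removed, the log2FC was 0.11 for miR-148a-5p (P14 vs P5), 0.25 (P14 vs P1), -0.52 (P90 vs P14) and -0.27 (P90 vs P1) for miR-148b-3p and -0.30 for miR-148b-5p (P90 vs P1), and the log2 ratio of the miR-101a arms (P90 minus P1) was -0.60. Also, miR-101a-3p was no longer called from P1 to P14 (-0.33). Leaving out single libraries gave ranges of -0.45 to 0.59 for miR-101a-5p (P5 vs P1), -0.26 to 0.11 for miR-148a-3p, -0.25 to 0.14 for miR-152-3p (both P90 vs P14) and -0.06 to 0.05 for miR-148b-3p (P14 vs P5), none of them called in the fit of all libraries. The steps of miR-148a-3p and miR-152-3p from P14 to P90 became called falls with library totals alone (-2.36 and -2.30), as did that of miR-148a-3p with the GC trend removed (-0.98). When single libraries were left out, the log2 ratio (P90 minus P1) ranged from 0.22 to 0.43 for miR-152-3p to miR-148a-3p. It ranged from -0.42 to 0.77 for the miR-101a arms and from -0.15 to 0.22 for the miR-148b arms. The miR-101a ratio passed the test without P1 replicate 2 (0.77, adjusted exact permutation p = 0.0172). Without the P14 libraries, a setting chosen after seeing the data, the ratios of miR-152-3p to miR-148a-3p (0.36) and of the miR-148b arms (0.08) lost their call.

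The labels do not say whether equal replicate numbers mark paired samples. Of 18 same-numbered pairs, 7 had deviations correlated above 0.1 (-0.35 to 0.28 over all), which cannot decide this. With the replicate block, the ratios of miR-152-3p to miR-148a-3p (0.36) and of the miR-148b arms (0.08) were not called (adjusted exact permutation p = 0.0794 for both), and with the block and the GC trend removed the log2FC was 0.09 for miR-148a-5p (P14 vs P5), 0.25 (P14 vs P1), -0.52 (P90 vs P14) and -0.26 (P90 vs P1) for miR-148b-3p and -0.30 for miR-148b-5p (P90 vs P1). The block left 0 arms called from P1 to P5, and miR-148b-3p lost its call from P14 to P90 (0.33). Depth limits miR-101a-5p most, with 3 to 24 counts in a library.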
